A study of Schizosaccharomyces pombe with 12 samples.

Results

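The 8 hexose transporter genes of the fission yeast Schizosaccharomyces pombe (ght1 to ght8) and the glucose-repressed genes fbp1 and inv1 were followed through all 4 groups of an RNA sequencing series on the genes ntu1 and ntu2. The 10 genes were taken by name from the deposited tables, out of 6936 genes listed there. All 10 were found, and 8 of them had enough counts to be tested. The genes ght6 and ght7 did not, and for them only values are given.

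Poly(A)-selected messenger RNA was sequenced from cultures in exponential growth at 30 °C in YES, a rich medium with glucose, with 3 libraries in each of 4 groups. The group ntu1_KO carried ntu1D::kanMX and the group ntu2_KO carried ntu2D::kanMX, in which the drug resistance cassette kanMX stands in place of the gene. Both were of mating type h+ with the alleles ade6-M216, ura4-D18 and leu1-32. The wild type wt_WT was h- with leu1-32, ura4-D18 and ade6-704. The wild type ntu_WT was h+ with leu1-32, ura4-D18 and ade6-M210. All 4 groups thus shared leu1-32 and ura4-D18, and neither wild type carried the ade6 allele of the knockouts, so that the deletion and this allele cannot be told apart. Each knockout is given as 1 strain, both wild types bear the same strain name despite their different genotypes, and nothing in the labels says whether the 3 libraries of a group came from separate cultures. The p-values below therefore measure the spread between these libraries, which may be technical.

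Library totals ran from 3177147 to 11782294 counts, and the 3 wt_WT libraries were the deepest. The part of the counts that fell on ribosomal RNA was 0.683% to 6.68% in the 9 libraries of the ntu groups and 0.371% to 0.699% in wt_WT. The deleted genes were lower in their knockouts, though not at 0. ntu1 averaged 10.4 ± 1.65 counts per 1e+06 counts (CPM) in ntu1_KO libraries against 93.1 ± 3.76 CPM in ntu_WT libraries, and ntu2 averaged 45.8 ± 7.44 CPM in ntu2_KO libraries against 219.02 ± 14.6 CPM in ntu_WT libraries (SD, n = 3 each). Which part of each gene these remaining counts fall on cannot be seen in counts per gene.

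Hexose transporters of the Ght family are proteins with many membrane-spanning segments that bring glucose and related sugars into the cell. In glucose-rich medium S. pombe ferments glucose, and genes for the use of other carbon sources are kept low. The cell senses glucose through the receptor Git3 and a cyclic AMP pathway that activates protein kinase A, while the zinc-finger repressor Scr1 and the Tup11, Tup12 and Ssn6 corepressors act at the genes themselves. When glucose runs short, protein kinase A activity drops, the activator Rst2 and the stress-activated factor Atf1 come into play, and fbp1 and inv1 are induced. These 2 genes are the classical reporters of glucose repression in this yeast. ght5 encodes the high-affinity transporter that fission yeast needs to grow in low glucose, and its level is also under the control of Scr1.

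The transporter family was dominated by 3 genes. On the scale of transcripts per 1e+06 transcripts (TPM), which divides by gene length, ght8 averaged 314.5 ± 24.2 TPM in ntu1_KO, 331.7 ± 29.1 in ntu2_KO, 410.0 ± 13.2 in wt_WT and 296.2 ± 26.1 in ntu_WT (SD, n = 3 each). It was the highest of the 8 genes in each of the 12 libraries. ght2 followed with 120.8 ± 1.78 TPM in ntu1_KO, 131.7 ± 22.5 in ntu2_KO, 141 ± 7.05 in wt_WT and 132.2 ± 12.8 in ntu_WT. ght5 averaged 127.2 ± 32.0 TPM in ntu1_KO, 61.3 ± 14.7 in ntu2_KO, 39.3 ± 2.92 in wt_WT and 101.7 ± 6.08 in ntu_WT. In ntu1_KO the ranges of ght2 and ght5 overlapped, so these neighbours in the order did not differ beyond their spread there, while in the other 3 groups each ght2 library was above each ght5 library. The remaining members ranked as ght4, ght3 and ght1 by mean TPM in each of the 4 groups, with ght7 and ght6 under 1 TPM at the bottom, and the means of ght4 lay between 7.95 TPM in ntu1_KO and 9.35 TPM in ntu_WT. The ranges of ght4 and ght3 overlapped in ntu_WT alone.

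As a share of the summed TPM of the 8 transporters, ght8 took 54.3 ± 4.89% in ntu1_KO, 61.4 ± 1.81% in ntu2_KO, 67.5 ± 0.27% in wt_WT and 53.9 ± 0.50% in ntu_WT (SD, n = 3 each). The share of ght5 was 21.9 ± 5.27% in ntu1_KO, 11.5 ± 3.56% in ntu2_KO, 6.49 ± 0.67% in wt_WT and 18.5 ± 0.81% in ntu_WT. The share of ght2 stayed between 20.8% and 24.3% in the group means. The summed level itself averaged 580.2 ± 7.71 TPM in ntu1_KO, 540.07 ± 34.7 in ntu2_KO, 607 ± 18.0 in wt_WT and 549 ± 49.04 in ntu_WT. In relative terms the group means of the sum lay closer together than those of ght5.

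**Figure D1:**
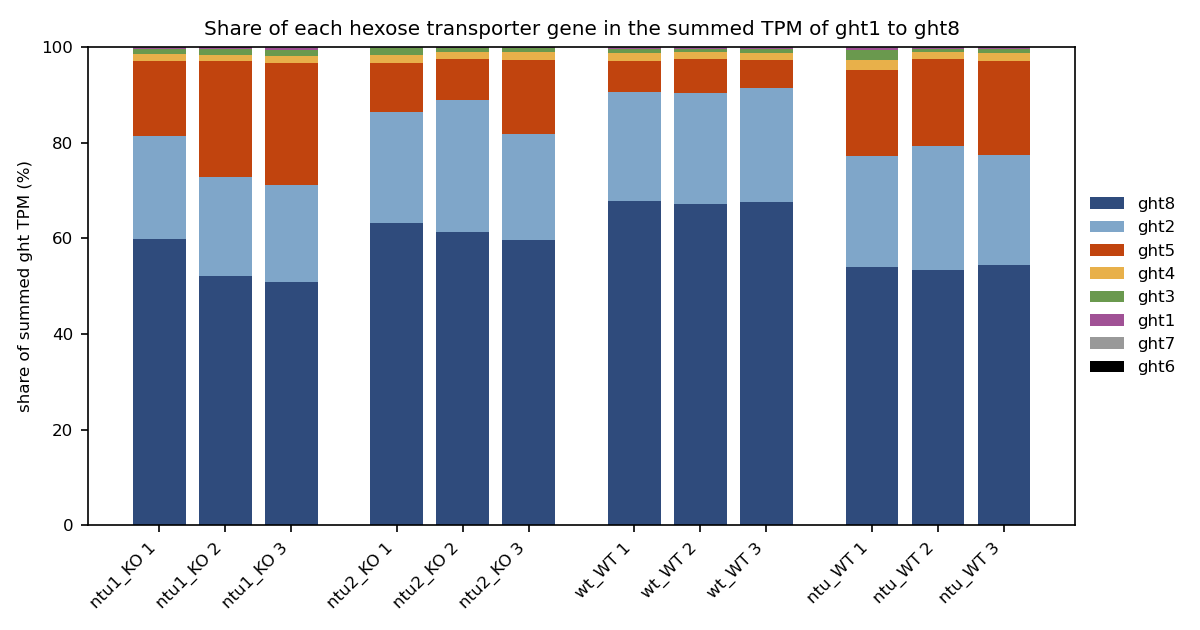
Share of each transporter gene (percent of the summed TPM of ght1 to ght8, vertical axis) in each of the 12 libraries (horizontal axis), as stacked bars that reach 100%. The ght5 segment is thinnest in the 3 wt_WT libraries, where it averaged 6.49%, and widest in ntu1_KO replicate 3 and replicate 2.

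Among the tested transporters, ght5 (SPCC1235.14) had the widest range of group means in relative terms. It had 161, 250.3 and 267 CPM in ntu1_KO, 99.8, 84.9 and 140.1 CPM in ntu2_KO, 67.0, 73.4 and 62.9 CPM in wt_WT and 193, 174 and 183 CPM in ntu_WT. The wt_WT libraries were the lowest and lay close together, the ntu2_KO libraries came next, and ntu1_KO replicate 1 lay below all ntu_WT libraries while the other ntu1_KO libraries lay above them. These values rest on between 316 and 1899 counts in a library.

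Against wt_WT, ght5 rose in ntu1_KO by 1.74 ± 0.22 on the log2 scale (SE; edgeR adjusted p = 0.00289), or 3.33-fold. In ntu2_KO its log2 fold change against wt_WT was 0.68 ± 0.23 (edgeR adjusted p = 0.177; DESeq2 adjusted p = 0.0438), with no overlap between the groups. Between the wild types it fell in wt_WT against ntu_WT by 1.43 ± 0.22 on the log2 scale (edgeR adjusted p = 0.0055). In wt_WT the h- mating type, the ade6-704 allele and the greater depth came together, and they cannot be told apart. The ribosomal RNA share was low in wt_WT too, at 0.371% to 0.699%, but ntu1_KO replicate 2 also had 0.683%. The part of this share in the ght5 differences was not tested. Against ntu_WT the log2 fold change stood at 0.30 ± 0.24 in ntu1_KO (edgeR adjusted p = 0.985) and -0.75 ± 0.25 in ntu2_KO (edgeR adjusted p = 0.409). All 3 ntu2_KO libraries lay below all 3 ntu_WT libraries.

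ntu1_KO was above ntu2_KO in ght5 in every library, with a log2 fold change of 1.05 ± 0.25, or 2.08-fold. This difference did not pass in edgeR (adjusted p = 0.543) and passed in DESeq2 (adjusted p = 0.0113). ntu1_KO replicate 1, the library with 6.68% ribosomal RNA, was the lowest of its group in ght5, and the part of this share in its value was not tested. Without it the log2 fold change stood at 1.25 ± 0.19 (edgeR adjusted p = 0.0682) against ntu2_KO and 0.49 ± 0.18 (edgeR adjusted p = 0.753) against ntu_WT. These were the lowest adjusted p among the 6 runs of each comparison with 1 library left out. Against ntu2_KO those runs gave 0.887 to 1.31 (edgeR adjusted p of 0.0682 to 0.997). Against ntu_WT they gave 0.170 to 0.494 (edgeR adjusted p of 0.753 to 0.999), and no run passed in either comparison.

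ght8 (SPCC548.06c) encodes a further hexose transporter. It had 1216, 1066 and 1076 CPM in ntu1_KO, 1202, 1205 and 1075 CPM in ntu2_KO, 1392, 1379.8 and 1445 CPM in wt_WT and 1153, 1024 and 1019 CPM in ntu_WT. The 3 wt_WT libraries lay above the other 9, and the other 3 groups overlapped one another. Against wt_WT, ght8 fell by 0.33 ± 0.06 on the log2 scale in ntu1_KO (edgeR adjusted p = 0.00321) and by 0.28 ± 0.06 in ntu2_KO (edgeR adjusted p = 0.0142). It rose in wt_WT against ntu_WT by 0.40 ± 0.06 (edgeR adjusted p = 0.000331). The ntu2_KO call was lost when any of the 3 wt_WT libraries was left out, with edgeR adjusted p of 0.0597, 0.0552 and 0.0989.

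ght5 and ght8 moved in opposite directions wherever both passed, and the reads of these genes are not fully separate. Of the 31-base sequences of their exons in assembly ASM294v3, 36.2% of those of ght5 and 30.8% of those of ght8 occur elsewhere in that genome, and 735 are common to both genes. The sources used here do not give how such reads were divided. With the counts of both genes added together, the sum averaged 1345 ± 30.4 CPM in ntu1_KO, 1269 ± 47.1 in ntu2_KO, 1473 ± 29.9 in wt_WT and 1249 ± 84.6 in ntu_WT (SD, n = 3 each). The sum rose in wt_WT against ntu_WT by 0.24 ± 0.05 on the log2 scale (edgeR adjusted p = 0.00635) and fell in ntu2_KO against wt_WT by 0.22 ± 0.05 (edgeR adjusted p = 0.0226). In ntu1_KO against wt_WT it was -0.13 ± 0.05 (edgeR adjusted p = 0.151). Taken apart, ght5 differed by -116 CPM and ght8 by 340.4 CPM in wt_WT against ntu_WT, and by 158 CPM and -286 CPM in ntu1_KO against wt_WT. The part of shared reads in these differences was not tested.

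ght2 (SPBC4B4.08), a hexose transporter gene with 0.358% of its 31-base sequences elsewhere, differed little between groups. It had 191, 183 and 186 CPM in ntu1_KO, 191, 236 and 175 CPM in ntu2_KO, 199.9, 202 and 219 CPM in wt_WT and 216, 215 and 188 CPM in ntu_WT. Its log2 fold changes ran from -0.15 ± 0.09 in ntu1_KO against wt_WT to 0.00 ± 0.09 in wt_WT against ntu_WT, and none passed. ght4 (SPBC1683.08), a transporter by sequence, was lower, with 22.6, 21.9 and 26.5 CPM in ntu1_KO, 26.5, 24.1 and 24.5 CPM in ntu2_KO, 28.3, 24.05 and 26.1 CPM in wt_WT and 34.9, 22.96 and 25.8 CPM in ntu_WT. The highest value was that of ntu_WT replicate 1, and the groups overlapped in all 6 comparisons.

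ght3 (SPAC1F8.01) is known as a gluconate transporter. It had 9.97, 10.9 and 10.7 CPM in ntu1_KO, 10.7, 7.16 and 6.63 CPM in ntu2_KO, 7.86, 6.98 and 8.72 CPM in wt_WT and 19.8, 6.37 and 7.68 CPM in ntu_WT. ntu_WT replicate 1 was again the highest of the 12 libraries. In ntu1_KO against ntu_WT the log2 fold change stood at -0.07 ± 0.38 (edgeR adjusted p = 0.999), and without ntu_WT replicate 1 it was 0.59 ± 0.25 (edgeR adjusted p = 0.746). Of the 31-base sequences of ght3, 13.8% occur elsewhere, mostly in ght4.

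ght1 (SPCC548.07c) encodes a hexose transporter and lies beside ght8. It had 3.03, 4.74 and 6.95 CPM in ntu1_KO, 2.21, 1.67 and 2.21 CPM in ntu2_KO, 3.16, 3.02 and 2.82 CPM in wt_WT and 5.93, 3.05 and 2.79 CPM in ntu_WT. The 3 ntu2_KO libraries were the lowest of the 12. The log2 fold change stood at 1.27 ± 0.41 in ntu1_KO against ntu2_KO (edgeR adjusted p = 0.543) and -0.94 ± 0.41 in ntu2_KO against ntu_WT (edgeR adjusted p = 0.489), and neither passed. These values rest on 7.09 to 36.4 estimated counts in the 9 libraries of the 3 ntu groups. ght1 has 8.34% of its 31-base sequences elsewhere in the genome, with 212 found in ght8 and 184 in ght5, both far higher in level. The part of shared reads in the ght1 values was not tested.

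ght6 and ght7 were close to the limit of detection. ght6 (SPCC1235.13), whose product is known to prefer fructose, had between 2 and 6.06 estimated counts in each library, or 0.41 ± 0.14 CPM in ntu1_KO, 0.65 ± 0.26 in ntu2_KO, 0.170 ± 0.0033 in wt_WT and 0.63 ± 0.18 in ntu_WT (SD, n = 3 each). ght6-antisense-1 covers it on the other strand and averaged 61.9 to 69.1 CPM in the 4 groups. The sources used here do not give whether the counting used strand, so that the counts of ght6 cannot be told apart from stray antisense counts. ght6 also has 6.19% of its 31-base sequences elsewhere in the genome, with 90 found in ght1, 87 in ght5 and 87 in ght8. The part of such shared reads in its counts was not tested. ght7 (SPBC1348.14c), a transporter by sequence, had 7, 4 and 5 counts in ntu1_KO, 1, 2 and 0 counts in ntu2_KO, 16, 11 and 18 counts in wt_WT and 13.01, 5 and 6 counts in ntu_WT. The 0 in ntu2_KO replicate 3 allows up to 0.510 CPM, at 3 counts of that library, for counting error only. The ght7 level of ntu2_KO, at 0.22 ± 0.19 CPM, was below each library of the other 3 groups.

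**Figure D2:**
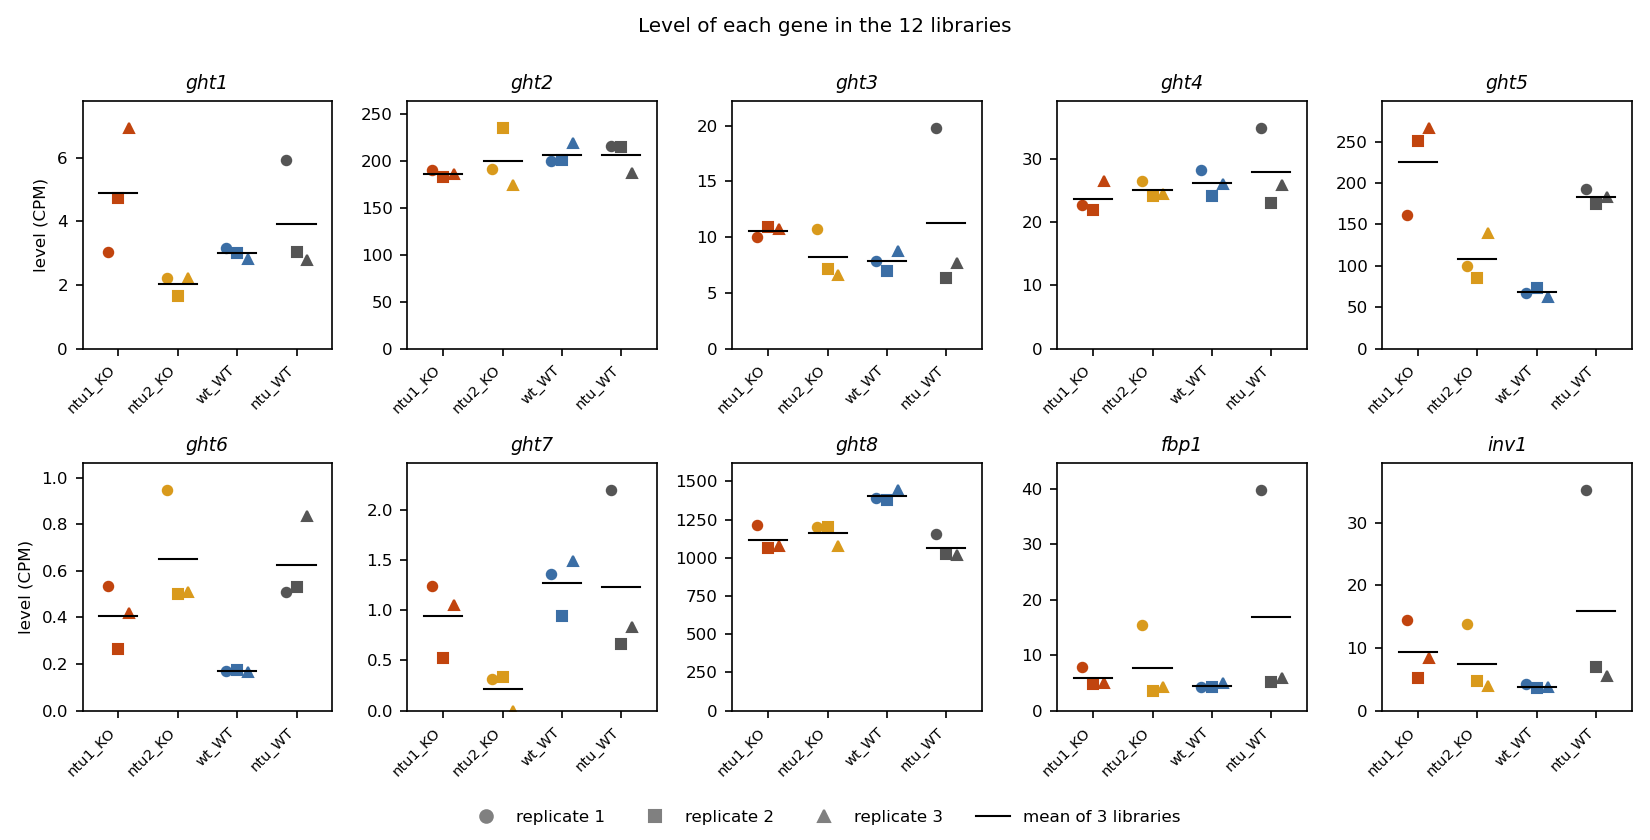
Level of each of the 10 genes in CPM (vertical axes, each starting at 0) by group (horizontal axes), with a point for each library, its shape giving the replicate number, and a line at the mean of 3 libraries. ght5 is lowest in wt_WT and ght8 highest there, and ntu_WT replicate 1 stands above the other libraries in fbp1 and inv1, at 39.8 and 35.2 CPM.

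fbp1 and inv1 were low in most libraries, and single libraries stood far above the rest of their groups. fbp1 (SPBC1198.14c) encodes fructose bisphosphatase, the enzyme that gluconeogenesis needs and glycolysis does not. It had 7.84, 4.88 and 5.05 CPM in ntu1_KO, 15.5, 3.50 and 4.25 CPM in ntu2_KO, 4.18, 4.31 and 4.98 CPM in wt_WT and 39.8, 5.18 and 5.86 CPM in ntu_WT. inv1 (SPCC191.11) encodes the secreted invertase that splits sucrose. It had 14.4, 5.14 and 8.42 CPM in ntu1_KO, 13.9, 4.66 and 3.91 CPM in ntu2_KO, 4.18, 3.53 and 3.82 CPM in wt_WT and 35.2, 7.03 and 5.58 CPM in ntu_WT. In both genes replicate 1 was the highest library of ntu1_KO, ntu2_KO and ntu_WT.

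In ntu_WT, replicate 1 was 7.21 times the mean of the other libraries of the group in fbp1 and 5.58 times in inv1. Over 5899 genes these ranked 7 and 10 from the top by that library's log2 deviation from the mean of the others in its group. The same ratio was 3.996 for fbp1 and 3.24 for inv1 in ntu2_KO, 1.58 and 2.13 in ntu1_KO, and 0.901 and 1.14 in wt_WT. Other members were high in ntu_WT replicate 1 as well, with ratios of 2.82 for ght3, 2.93 for ght7, 2.03 for ght1 and 1.43 for ght4, against 1.13 for ght8, 1.08 for ght5, 1.07 for ght2 and 0.743 for ght6. The 3 highest transporters thus stood near their group's level in that library, 4 of the 5 low ones stood above it, and ght6, the lowest, stood below it.

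A few other genes for carbon sources besides glucose were high in ntu_WT replicate 1 too. Of 16 tested genes of that kind, 3 lay at least 2-fold above the mean log2 level of the other ntu_WT libraries, which were gld1 (glycerol dehydrogenase) at 29.1 CPM against 9.82 and 9.49 CPM in the others, agl1 (an alpha-glucosidase gene) at 44.2 against 17.8 and 13.7 CPM, and gcd1 (glucose dehydrogenase) at 10.8 against 3.72 and 4.61 CPM. Of 16 genes of glycolysis and fermentation 2 did so, eno102 and pdc201, and of 10 core stress genes 0 did. Over all genes the share was 0.865%. Ribosomal RNA took 2.67% of that library, against 2.40% and 2.57% in the others of its group.

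The comparisons of fbp1 and inv1 with ntu_WT rest on that library. In ntu1_KO against ntu_WT the log2 fold change of fbp1 was -1.49 ± 1.01 (edgeR adjusted p = 0.983) with it and 0.10 ± 0.59 (edgeR adjusted p = 0.994) without it. In ntu2_KO against ntu_WT it was -1.25 ± 1.02 (edgeR adjusted p = 0.786) with it and 0.36 ± 0.59 (edgeR adjusted p = 0.872) without it. For inv1 the values were -0.76 ± 0.89 with it and 0.54 ± 0.60 without it in ntu1_KO, and -1.19 ± 0.95 with it and 0.13 ± 0.63 without it in ntu2_KO. Between the wild types, wt_WT against ntu_WT, the log2 fold change stood at -1.87 ± 0.84 for fbp1 and -2.01 ± 0.79 for inv1 (edgeR adjusted p = 0.224 and 0.169), and -0.29 ± 0.49 and -0.71 ± 0.52 without it. None of these passed. The ntu2_KO values without ntu_WT replicate 1 also rest on ntu2_KO replicate 1, the highest library of its group in both genes. Over replicates 2 and 3 alone, fbp1 averaged 4.96 CPM in ntu1_KO, 3.87 in ntu2_KO and 5.52 in ntu_WT. For inv1 these means were 6.78 CPM in ntu1_KO, 4.29 in ntu2_KO and 6.31 in ntu_WT. The antisense transcript fbp1-antisense-1 overlaps fbp1 and averaged 23.8 to 29.6 CPM in the 4 groups, above fbp1 itself in 11 of the 12 libraries, and none of its 6 comparisons passed.

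**Figure D3:**
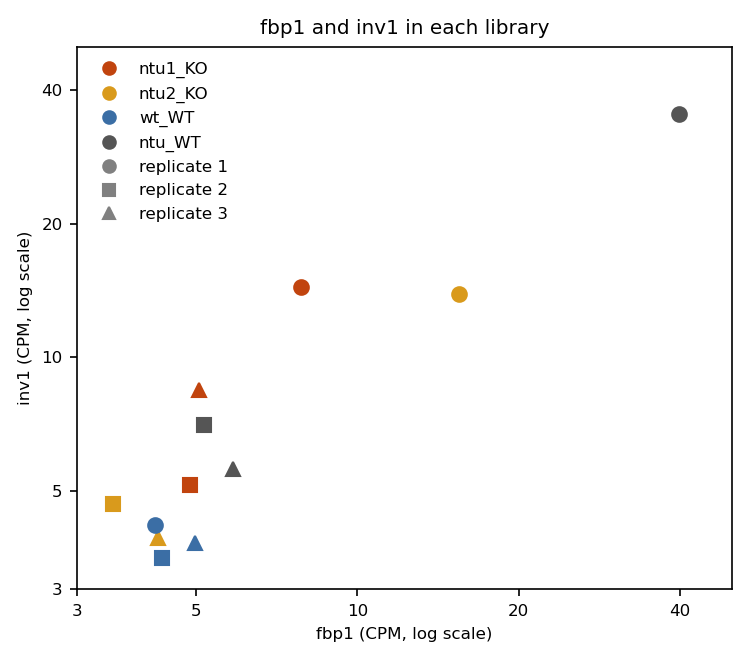
inv1 (vertical axis) against fbp1 (horizontal axis), both in CPM on log scales, with a point for each of the 12 libraries, coloured by group and shaped by replicate number. The 3 libraries numbered 1 of ntu1_KO, ntu2_KO and ntu_WT lie apart at the upper right, and wt_WT replicate 1 lies with the rest.

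The 8 tested members were ght1 to ght5, ght8, fbp1 and inv1. Of these, 0 of 8 passed in ntu1_KO against ntu_WT, beside 0.74% of all tested genes. Passing was an edgeR adjusted p under 0.05, the threshold used throughout. In ntu2_KO against ntu_WT 0 of 8 passed (0.758% of all genes), and in ntu1_KO against ntu2_KO 0 of 8 (0.103% of all genes). At an unadjusted edgeR p under 0.05 the counts were 0, 2 and 2, the last pairs being ght1 and ght5 both times. Of all 5808 genes, 342, 526 and 387 had such a p in these comparisons. DESeq2 passed 0, 0 and 1 members, beside 59, 82 and 19 of 5808 genes. With limma on log2(TPM + 1) 0 members passed in each, beside 31, 27 and 8 of 6132 genes. In ntu1_KO against wt_WT 2 of 8 passed, ght5 higher and ght8 lower (5.87% of all genes). In ntu2_KO against wt_WT 1 of 8 passed, ght8 lower (3.78% of all genes). In wt_WT against ntu_WT 2 of 8 passed, ght8 higher and ght5 lower (8.24% of all genes). The 3 comparisons with ntu_WT share its libraries, as the 3 with wt_WT share theirs. A p that misses the threshold does not show that the groups were alike.

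Groups that did not overlap were more common than calls. In ntu2_KO against ntu_WT 2 of 8 tested members were lower with no overlap, ght1 and ght5, against 6.51% of all tested genes. In ntu1_KO against ntu2_KO the same members were higher with no overlap (2 of 8, against 5.29%). In ntu1_KO against wt_WT 3 were higher, ght3, ght5 and inv1 (against 16% of all genes), and 2 lower, ght2 and ght8 (against 16.2%). In ntu2_KO against wt_WT 1 was higher, ght5 (against 10.1%), and 2 lower, ght1 and ght8 (against 11.4%). In wt_WT against ntu_WT 1 was higher, ght8 (against 18%), and 3 lower, ght5, fbp1 and inv1 (against 17.3%). In ntu1_KO against ntu_WT 0 of 8 were higher (against 6.82% of all genes) and 0 lower (against 7.13%) with no overlap. None was higher in this way in ntu2_KO against ntu_WT (6.75% of all genes), or lower in ntu1_KO against ntu2_KO (5.04%).

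**Figure D4:**
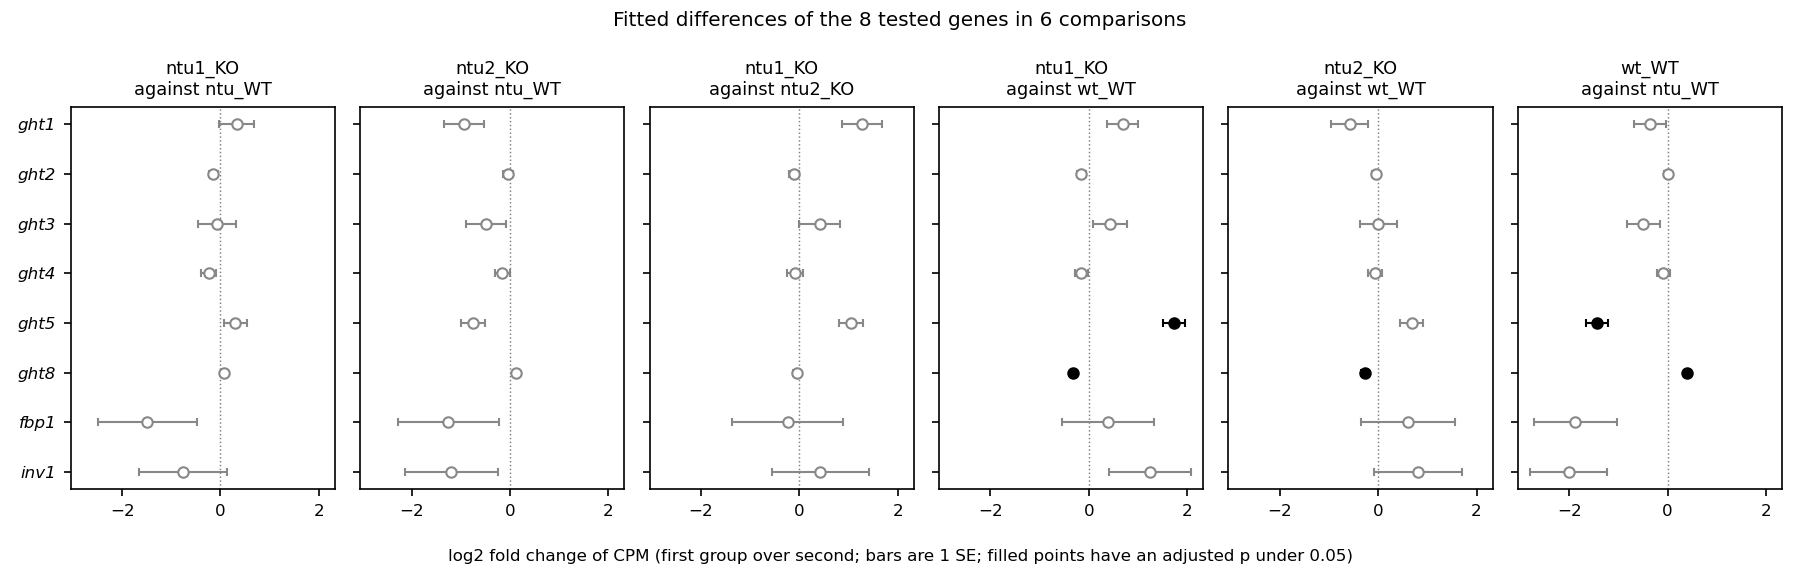
Log2 fold change (horizontal axis, first group over second) of the 8 tested genes (vertical axis) in the 6 comparisons (panels), with bars of 1 SE and filled points for an edgeR adjusted p under 0.05. Filled points occur for ght5 and ght8 alone, in the panels that include wt_WT, and the bars of fbp1 and inv1 are the widest.

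Among the other genes for the use of carbon sources, mal1 set the knockouts apart from both wild types. mal1 (SPBC1683.07), the maltase that splits maltose into glucose, lies next to ght4. It had 30.99, 25.96 and 25.7 CPM in ntu1_KO, 26.2, 28.1 and 26.01 CPM in ntu2_KO, 58.6, 56.3 and 62.4 CPM in wt_WT and 44.2, 51.9 and 45.9 CPM in ntu_WT. All 6 knockout libraries lay below all 6 wild-type libraries. How many of all genes do so was not counted. In single comparisons 7.13% (ntu1_KO) and 6.51% (ntu2_KO) of tested genes were lower with no overlap against ntu_WT. Against wt_WT the shares were 16.2% and 11.4%. mal1 fell in ntu1_KO against ntu_WT by 0.78 ± 0.11 on the log2 scale (edgeR adjusted p = 0.000863) and in ntu2_KO against ntu_WT by 0.82 ± 0.11 (edgeR adjusted p = 0.000727). Against wt_WT it fell by 1.10 ± 0.09 in ntu1_KO (edgeR adjusted p = 3.88e-07) and by 1.14 ± 0.10 in ntu2_KO (edgeR adjusted p = 3.39e-07). These 4 calls held in edgeR with each of the 6 compared libraries left out in turn. With limma on log2(TPM + 1) the calls against ntu_WT were lost, at adjusted p of 0.0592 in ntu1_KO and 0.0536 in ntu2_KO. mal1 also rose in wt_WT against ntu_WT, by 0.32 ± 0.09 (edgeR adjusted p = 0.0289), a call kept with 1 of the 6 libraries left out. With limma on log2(TPM + 1) this call was lost as well (limma adjusted p = 0.0643). The knockouts also share the ade6-M216 allele, so that their common fall and this allele cannot be told apart.

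None of the 31-base sequences of mal1 occurs elsewhere, but 3 annotated genes overlap it on the opposite strand, and they were looked up after the values of mal1 were seen. mal1-antisense-1 (SPNCRNA.1317) had 2.49, 3.03 and 1.05 CPM in ntu1_KO, 1.58, 1.499 and 1.87 CPM in ntu2_KO, 0.342, 0.517 and 0.581 CPM in wt_WT and 0.339, 0.133 and 0.698 CPM in ntu_WT. All 6 knockout libraries lay above all 6 wild-type libraries, the reverse of mal1, at 1 to 23 estimated counts in a library. How many of all genes do so was not counted. In single comparisons 6.82% (ntu1_KO) and 6.75% (ntu2_KO) of tested genes were higher with no overlap against ntu_WT. Against wt_WT the shares were 16% and 10.1%. mal1-antisense-1 rose in ntu1_KO against wt_WT by 2.21 ± 0.48 on the log2 scale (edgeR adjusted p = 0.00911), a call kept with 4 of the 6 libraries left out. The other values were 1.75 ± 0.53 in ntu2_KO against wt_WT (edgeR adjusted p = 0.0743), 2.49 ± 0.57 in ntu1_KO against ntu_WT (edgeR adjusted p = 0.0557) and 2.04 ± 0.62 in ntu2_KO against ntu_WT (edgeR adjusted p = 0.203). SPNCRNA.1318, which also overlaps ght4, averaged 7.68 ± 0.69 CPM in ntu1_KO, 6.58 ± 2.53 in ntu2_KO, 3.48 ± 0.57 in wt_WT and 6.27 ± 0.74 in ntu_WT (SD, n = 3 each), with passing differences in ntu1_KO against wt_WT (log2 fold change 1.14 ± 0.24, edgeR adjusted p = 0.00851) and in wt_WT against ntu_WT (-0.84 ± 0.25, edgeR adjusted p = 0.0384), kept with 4 and 0 of the 6 libraries left out and both lost with limma on log2(TPM + 1). urh1 averaged 19.3 ± 1.23 CPM in ntu1_KO, 17.1 ± 1.02 in ntu2_KO, 24.8 ± 1.85 in wt_WT and 18.9 ± 2.82 in ntu_WT, and it passed in ntu2_KO against wt_WT alone (-0.53 ± 0.13, edgeR adjusted p = 0.0267), a call kept with 2 of the 6 libraries left out. Their part in the counts of mal1 was not tested.

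In edgeR mal1 was the only passing gene of the 16 tested genes for other carbon sources in each knockout against ntu_WT. This is 6.25%, beside 0.74% of all genes in ntu1_KO and 0.758% in ntu2_KO, and it rests on 1 gene. All lists used here were chosen with earlier results of these data known, so such shares are no test of a list. Against ntu_WT DESeq2 passed mal1 alone in ntu1_KO, and mal1, dak2 and gal10, all lower, in ntu2_KO. In ntu1_KO against ntu2_KO 0 of 16 passed in edgeR, DESeq2 or limma, and 2 had an unadjusted edgeR p under 0.05, as had 387 of all 5808 genes. In ntu1_KO against wt_WT, mae2, the malic enzyme gene, fell beside mal1, by 0.51 ± 0.13 (edgeR adjusted p = 0.0477), a call kept with 1 of 6 libraries left out. These 2 of 16 are 12.5%, beside 5.87% of all genes. In ntu2_KO against wt_WT mal1 alone passed in edgeR, or 6.25% beside 3.78% of all genes. In wt_WT against ntu_WT 3 of 16 passed, or 18.8% beside 8.24% of all genes. Higher were mal1 and idn1, a gene of gluconate use (log2 fold change 0.22 ± 0.06, edgeR adjusted p = 0.0238). Lower was gal10 of galactose use (-0.70 ± 0.19, edgeR adjusted p = 0.0301). The calls of idn1 and gal10 were kept with 2 and 1 of the 6 libraries left out. With limma on log2(TPM + 1) idn1 alone passed between the wild types, while mal1 and gal10 did not (limma adjusted p = 0.0643 and 0.196).

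**Figure D5:**
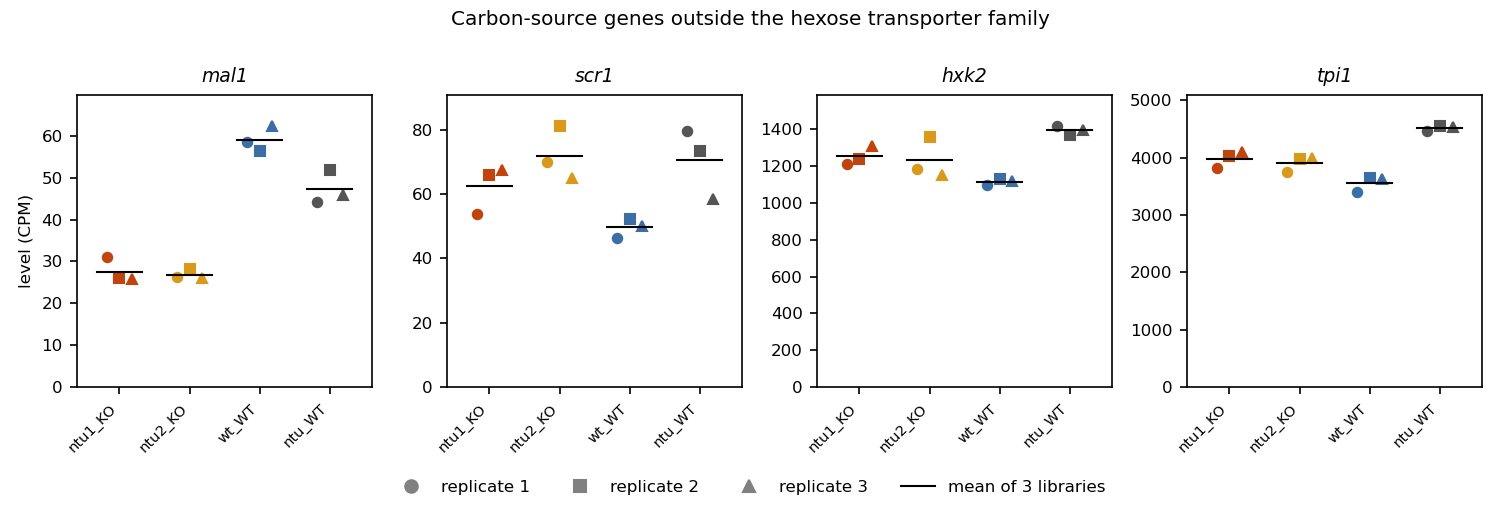
Level in CPM (vertical axes, each starting at 0) of mal1, scr1, hxk2 and tpi1 by group (horizontal axes), with a point for each library, its shape giving the replicate number, and a line at the mean of 3 libraries. All knockout libraries of mal1 lie at or under 30.99 CPM and all wild-type libraries at or over 44.2 CPM.

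Genes of glycolysis and fermentation passed in edgeR between the wild types alone, and whether the comparisons differ from one another was not tested. In wt_WT against ntu_WT 5 of 16 tested genes were lower and 0 higher, or 31.2% beside 8.24% of all genes. DESeq2 passed 6 and limma 3 there, all lower, and 11 of 16 had an unadjusted edgeR p under 0.05, as had 1375 of all 5899 genes. tpi1, the triose phosphate isomerase gene, had 3401, 3642 and 3629 CPM in wt_WT against 4469.98, 4551 and 4534 CPM in ntu_WT, a fall of 0.34 ± 0.05 on the log2 scale (edgeR adjusted p = 0.000131). hxk2, a hexokinase gene whose product phosphorylates the sugar that the transporters bring in, fell by 0.32 ± 0.06 (edgeR adjusted p = 0.000979), and gpm1, for phosphoglycerate mutase, by 0.27 ± 0.06 (edgeR adjusted p = 0.00543). The calls of these 3 genes held with each library left out in turn. pyk1, for pyruvate kinase, fell by 0.20 ± 0.05 (edgeR adjusted p = 0.0197), a call that was lost with any 1 library left out. pdc201, a pyruvate decarboxylase gene, fell by 1.13 ± 0.31 (edgeR adjusted p = 0.0358), kept with 1 of 6 left out. In the other 5 comparisons 0 of 16 passed in edgeR and in limma. These were ntu1_KO and ntu2_KO against ntu_WT, ntu1_KO against ntu2_KO, and ntu1_KO and ntu2_KO against wt_WT. In that order 3, 4, 0, 8 and 7 of 16 had an unadjusted edgeR p under 0.05. Over all genes the numbers were 342, 526 and 387 of 5808, then 1186 and 991 of 5899. DESeq2 passed 1, 1, 0, 2 and 1 of the 16 in the same order. These were tpi1 lower in both knockouts against ntu_WT, tpi1 and gpm1 higher in ntu1_KO against wt_WT, and pyk1 higher in ntu2_KO against wt_WT.

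Regulators of glucose repression were also followed. Of 11 repressor and AMP-activated kinase genes, scr1 alone passed. It encodes the repressor of ght5, fbp1 and inv1 named above, and had 53.6, 65.9 and 67.4 CPM in ntu1_KO, 69.8, 81.1 and 64.8 CPM in ntu2_KO, 46.3, 52.3 and 50.1 CPM in wt_WT and 79.6, 73.4 and 58.5 CPM in ntu_WT. The wt_WT libraries were the lowest 3 of the 12, as they were in ght5. scr1 rose in ntu2_KO against wt_WT by 0.54 ± 0.12 on the log2 scale (edgeR adjusted p = 0.0139), kept with 3 of 6 libraries left out, and fell in wt_WT against ntu_WT by 0.50 ± 0.11 (edgeR adjusted p = 0.0102), kept with 4 of 6. In ntu1_KO against wt_WT it was 0.33 ± 0.11 (edgeR adjusted p = 0.109). DESeq2 passed scr1 in the same comparisons as edgeR, and limma on log2(TPM + 1) passed 0 of the 11 in each comparison. In edgeR, scr1 as 1 of 11 genes is 9.09% of its list. Beside this stand 3.78% of all genes in ntu2_KO against wt_WT and 8.24% in wt_WT against ntu_WT, the latter share being near that of the list.

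Of the 11 genes of the cyclic AMP pathway and the 6 genes known to act on the place of Ght5 at the cell surface, 0 passed in any of the 6 comparisons in edgeR, DESeq2 or limma. The numbers with an unadjusted edgeR p under 0.05 were at most 3 of 11 and 1 of 6. The 3 of 11 were in ntu1_KO against wt_WT. The 1 of 6 occurred there and in ntu1_KO against ntu2_KO. Over all genes 1186 of 5899 and 387 of 5808 had such a p in these comparisons. The value farthest from 0 in the cyclic AMP list was that of cgs1, the regulatory subunit of protein kinase A, at 0.34 ± 0.18 in ntu1_KO against wt_WT, and git3, the glucose receptor gene, was at -0.30 ± 0.10 in ntu1_KO against ntu_WT. Among the Ght5 genes it was that of aly3, an arrestin-like adaptor, at -0.23 ± 0.09 in ntu1_KO against ntu2_KO. Of 10 core stress genes, hsp16, a small heat shock protein gene, fell by 1.38 ± 0.29 in ntu1_KO against wt_WT (edgeR adjusted p = 0.0297) and by 1.58 ± 0.31 in ntu2_KO against wt_WT (edgeR adjusted p = 0.0268), and gpd1, for glycerol phosphate dehydrogenase, fell by 0.44 ± 0.11 in ntu1_KO against wt_WT (edgeR adjusted p = 0.0345). These 3 calls were kept with 0, 2 and 0 of the 6 libraries left out. They are 2 of 10 in ntu1_KO, beside 5.87% of all genes, and 1 of 10 in ntu2_KO, beside 3.78%. DESeq2 passed 3 and 2 of 10 there, with hsp9, a further heat shock gene, lower in both, and limma passed the same genes as edgeR. In the other 4 comparisons 0 of the 10 stress genes passed in edgeR, DESeq2 or limma. At most 2 had an unadjusted edgeR p under 0.05, in wt_WT against ntu_WT, where 1375 of all 5899 genes had one.

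As a description of likeness, log2 CPM over the 12 libraries was correlated between each of ght5, fbp1 and inv1 and the 5891 other tested genes. These libraries share their groups and differ in depth, so the values carry no test. fbp1 and inv1 followed each other with Pearson's r of 0.919, and 0.816 without ntu_WT replicate 1, while ght5 and ght8 ran opposite to each other with r of -0.86, and -0.873 without it. The genes most like ght5 were rrp46 (r = 0.937), SPNCRNA.1115 (0.918) and SPCC663.09c (0.917). Those most like fbp1 were mug108 (0.955), lsd90 (0.935) and cum1 (0.934), which stood at 0.845, 0.768 and 0.833 without ntu_WT replicate 1. Those most like inv1 were SPAPB1A11.03 (0.947), lsd90 (0.934) and ddr48 (0.892), and at 0.883, 0.939 and 0.757 without it.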

How the data were processed

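Per the labels' protocols, stranded poly(A) libraries came from 300 ng of total RNA each. The authors deposited estimated counts per gene, which are expected counts, and TPM values per gene, and 91.2% of the non-zero deposited counts are not whole. The submitters' processing notes name Salmon 1.9.0 and the build ASM294v2, without their role. The sources used here do not give strand use or any scaling of the counts. The annotation of ASM294v3 served for names, neighbours and shared 31-base sequences, and no coordinates are printed.

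Counts were rounded, scaled by TMM and tested with edgeR 4.0.16 under R 4.3.3 by its quasi-likelihood test (filterByExpr, minimum count 10, robust fit), with Benjamini-Hochberg adjustment over all tested genes. Comparisons among ntu1_KO, ntu2_KO and ntu_WT used 1 fit of those 9 libraries (5808 genes), and comparisons with wt_WT 1 fit of all 12 (5899 genes). An adjusted p under 0.05 passed. Each SE was taken as the absolute log2 fold change over the square root of F. All 12 columns were mapped by name. The tests were also run on simulated counts with the same spread in all genes and groups. That setting lacks single high libraries such as ntu_WT replicate 1, so it does not cover them.

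Other settings tried were upper-quartile or DESeq2 size factors in edgeR, no filter, DESeq2 1.42.0, limma 3.58.1 on log2(TPM + 1) or log2(TPM + 0.1) at a mean TPM of at least 1, a 2-fold minimum, a replicate block, other sets of libraries and each library left out. The named genes are the 10 members, every passing gene of 6 lists (71 of 72 listed genes were found) and the 3 genes most like ght5, fbp1 and inv1. The members and lists were chosen with earlier results of these data known. Leaving out the libraries numbered 1, summing ght5 and ght8, and the genes that overlap mal1 were added after the data were seen.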

Additional observations from a re-analysis of the deposited data

How the results depend on the processing

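The number of members passing was 0 in ntu1_KO and in ntu2_KO against ntu_WT under each alternative run, leaving out each library included. In ntu1_KO against ntu2_KO it was 1 under DESeq2 (ght5) and 0 otherwise. In ntu1_KO against wt_WT, where 2 passed, 1 was left with the 2-fold minimum (ght5) and 4 passed in a fit of the 2 compared groups alone, with inv1 higher and ght2 lower added. In ntu2_KO against wt_WT, where 1 passed, the count was 2 under DESeq2 (ght5 added), 0 with limma on log2(TPM + 1), on log2(TPM + 0.1) and without a filter, 0 with the 2-fold minimum and 0 to 1 with 1 library left out. In wt_WT against ntu_WT, where 2 passed, 1 was left with the 2-fold minimum (ght5). The cause of these shifts was not tested. Of 744 recomputed log2 fold changes of members, 33 changed direction, none of them passing, 6 no longer passed and 5 newly passed.

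Over all genes no pairing of the libraries by replicate number was seen. The same-number correlations of deviations ran from -0.162 to 0.0978, and not each library correlated best with its own number. Such correlations cannot show whether a few genes follow the replicate number. In fbp1 and inv1 replicate 1 was the highest library of ntu1_KO, ntu2_KO and ntu_WT, and whether these libraries share a batch was not tested. With the replicate block, members passing were 0, 0, 0, 2, 1 and 3 in the 6 comparisons (ntu1_KO, then ntu2_KO against ntu_WT, ntu1_KO against ntu2_KO, ntu1_KO, then ntu2_KO against wt_WT, and wt_WT against ntu_WT), inv1 being added in the last (adjusted p = 0.0459), and genes passing were 52, 80, 10, 377, 231 and 530, against 43, 44, 6, 346, 223 and 486 without it. Over all genes DESeq2 passed 59, 82, 19, 401, 265 and 521, and limma on log2(TPM + 1) 31, 27, 8, 235, 124 and 416. The fits of 2 groups alone passed 777, 160 and 1036 in the 3 comparisons with wt_WT. Without ntu2_KO replicate 3 the counts were 195 against ntu_WT, 355 against wt_WT and 81 in ntu1_KO against ntu2_KO. Genes under about 10 CPM rest on few counts, ght6 and ght7 could not be tested at this depth, and mean levels of fbp1 and inv1 in ntu_WT rest on 1 library.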
